A study of Homo sapiens with 60 samples.

Results

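The FOS, JUN and EGR immediate early genes were followed across 60 RNA libraries of A549, a human lung carcinoma cell line of epithelial origin. The 10 genes were taken by symbol from a count table of 60675 Ensembl identifiers: FOS, FOSB and FOSL1; JUN and JUNB; EGR1, EGR2 and EGR3; and IER2 and IER3. Of these, 8 passed the filter on low counts and were tested, whereas EGR2 and EGR3 did not.

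The cells had been exposed for 24 h to 1 of 8 herbal extracts or to DMSO vehicle, and libraries fell into 25 groups. Soshiho-tang and Yijin-tang are decoctions given as water extracts, with 2 and 3 libraries per dose. The ethanol extracts of 4 single herbs, Longan Arillus, Zizyphi Semen, Schisandrae Fructus and Liriopis seu Ophiopogonis Tuber, had 3 libraries per dose. For these 6 extracts the low, medium and high doses were 20, 100 and 500 µg/mL. The ethanol extract of Polygalae Radix was given at 15.2, 76 and 380 µg/mL, and that of Aucklandiae Radix at 14.8, 74 and 370 µg/mL, with 1 library per dose. Vehicle had 3 libraries, given as 0.1% DMSO by the sample labels and as 2% by the design text, and all cultures were of the same cell line, with no gene altered. Every library carried a set number: Soshiho-tang shared a set with Yijin-tang, Liriopis seu Ophiopogonis Tuber with Schisandrae Fructus, Longan Arillus with Zizyphi Semen, and Polygalae Radix with Aucklandiae Radix. Vehicle was a set of its own, so that set and treatment cannot be told apart in a comparison with vehicle, and each high dose was therefore set against its own low dose as well, inside a set. Nothing in the labels says that replicates were separate cultures, so p-values measure only the spread between libraries, which may be technical.

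Immediate early genes are transcribed within minutes of a stimulus, from factors already present in the cell, and their transcripts decay quickly. FOS and JUN proteins pair through leucine zippers into the AP-1 transcription factor, and EGR proteins are zinc finger factors that bind GC-rich sites. Serum response factor with its ternary complex partners, acting downstream of MAP kinases, and CREB, acting downstream of cyclic AMP and calcium, are well known inducers of these genes. In lung carcinoma cells FOSL1 is known to be kept on by MAP kinase signalling. The libraries were made at a single time, long after such a first wave would pass, and from RNA of whole cultures, in which a change in every cell and a larger change in some cells cannot be told apart.

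Library totals were 18 to 33.83 M counts (M, counts in units of 1e6). Epithelial and A549 marker genes (10 genes, led by the aldehyde dehydrogenase ALDH1A1 and the keratins KRT8 and KRT18) summed to 18660 to 19040 CPM in vehicle libraries, where CPM is counts per 1e6 counts after TMM scaling. All 8 leukocyte markers together reached 2.49 to 2.782 CPM in vehicle and at most 8.032 CPM in any library, and endothelial markers reached at most 0.7786 CPM. The leukocyte markers PTPRC and CD3E and the endothelial marker KDR were at 0 or near 0 (at most 0.0848, 0.0702 and 0.0486 CPM). Fibroblast markers summed to 21.15 to 50.22 CPM, mostly COL1A1, with DCN at no more than 0.0758 CPM.

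Replicate 3 of Soshiho-tang at the medium dose and replicate 3 of Longan Arillus at the low dose stood apart from the other 58 libraries. In both, long transcripts were depleted: the slope of log2 level on log2 transcript length was -0.430 and -0.518, against -0.101 to 0.107 in the others (9495 genes). Each count of tested genes is given from 54 libraries of the 6 replicated extracts and vehicle (edgeR quasi-likelihood F test, adjusted over 17826 genes, called at an adjusted p under 0.05) and, beside it, from the 52 libraries without those 2 (18228 genes). The common dispersion, the squared coefficient of variation between libraries, was 0.0173 with the 2 libraries and 0.00244 without them.

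The sequence just upstream of 6 of the genes is shown because these genes are compared below and because elements of the inducers named above can lie there. The 150 bases before the RefSeq start (GRCh38.p14) are written 5′ to 3′ on the strand of the gene, with capitals for matches on either strand to the CArG box (the serum response factor site), the core TGACG of the cyclic AMP response element, the AP-1 sites TGACTCA and TGAGTCA, and the TATA box TATAAA. Entries in the RefSeq promoter table were found for 7 of the 10 genes.
FOSB (chr19:45467846-45467995, + strand): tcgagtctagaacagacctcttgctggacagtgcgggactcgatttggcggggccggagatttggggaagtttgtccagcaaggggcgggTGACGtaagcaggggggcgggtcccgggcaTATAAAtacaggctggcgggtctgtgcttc
FOS (chr14:75278678-75278827, + strand): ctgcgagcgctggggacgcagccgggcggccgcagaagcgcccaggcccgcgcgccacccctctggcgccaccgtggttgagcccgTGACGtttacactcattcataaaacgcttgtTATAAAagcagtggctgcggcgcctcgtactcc
EGR1 (chr5:138465329-138465478, + strand): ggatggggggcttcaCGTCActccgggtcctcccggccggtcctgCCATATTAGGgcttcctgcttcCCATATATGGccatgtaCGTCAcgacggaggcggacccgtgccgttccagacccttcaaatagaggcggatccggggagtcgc
JUN (chr1:58784048-58784197, - strand): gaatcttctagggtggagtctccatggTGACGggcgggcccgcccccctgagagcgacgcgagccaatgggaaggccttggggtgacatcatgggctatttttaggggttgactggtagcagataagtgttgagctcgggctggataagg
JUNB (chr19:12791336-12791485, + strand): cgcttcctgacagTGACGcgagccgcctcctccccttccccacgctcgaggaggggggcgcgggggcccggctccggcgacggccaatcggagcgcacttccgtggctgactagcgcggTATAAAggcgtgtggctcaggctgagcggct
IER2 (chr19:13150261-13150410, + strand): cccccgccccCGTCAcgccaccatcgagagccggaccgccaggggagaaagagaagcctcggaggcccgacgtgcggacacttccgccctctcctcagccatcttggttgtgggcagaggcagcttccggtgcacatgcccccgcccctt
The core TGACG was found in the 6 windows shown, at 60 and 64 bases before the start in FOSB and FOS, against 15.4% of all 35116 promoters of the same length. TATAAA was found about 30 bases before the start in FOSB, FOS and JUNB (6.71% of all promoters). A CArG box was found in EGR1 alone among the 6, with 2 matches (0.769% of all promoters), and neither TGACTCA nor TGAGTCA was found in any of them (2.89%). The full element TGACGTCA, of which TGACG is a part, was found in none (1.4%). These are letters in a window of 150 bases and not measured sites. Variants of these letters and sequence farther upstream were not searched. In the window of EGR2, which is not shown because its RNA was all but undetected, none of these elements was found. FOSL1 (ENSG00000175592) lies on chromosome 11 from 65892049 to 65900573 and IER3 (ENSG00000137331) on chromosome 6 from 30743199 to 30744554, both on the - strand (GENCODE 29, GRCh38).

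In vehicle-treated cells the members spanned a wide range of levels. On the scale of CPM per kilobase of transcript, IER3, an immediate early gene tied to cell survival, was highest (50.6 ± 3.16, SD, n = 3), followed by the AP-1 subunit gene JUNB (31.6 ± 1.65). FOSL1, which encodes the FOS relative FRA-1, and IER2, which encodes a nuclear protein of the early response, came next at 19.5 ± 1.39 and 18.3 ± 0.973 CPM per kilobase, and their libraries overlapped. JUN stood at 7.88 ± 0.443, FOS at 1.8 ± 0.118, EGR1 at 0.436 ± 0.078 and FOSB at 0.302 ± 0.0307 CPM per kilobase, each pair of neighbours without overlap.

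**Figure D1:**
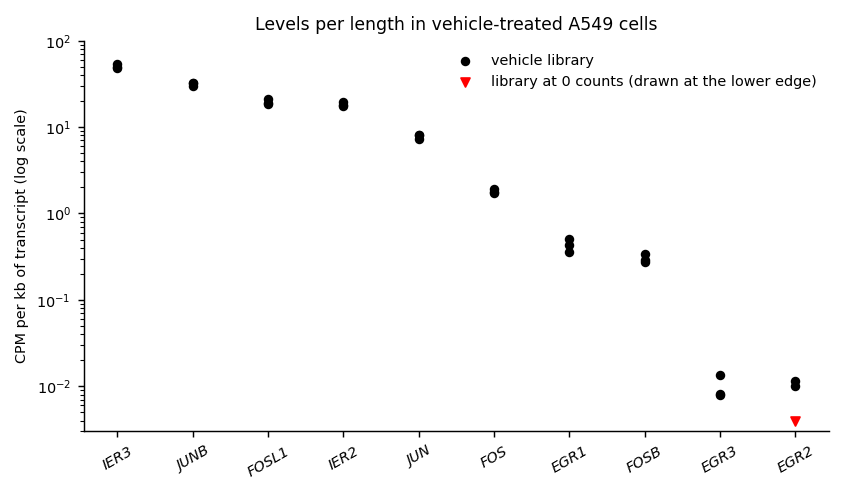
Level per kilobase of transcript (log scale) of the 10 genes in each of 3 vehicle libraries, ordered by mean. IER3 leads at 48.4 to 54.2 CPM per kilobase, and EGR2 and EGR3 lie at or under 0.0137.

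EGR2 and EGR3, the relatives of EGR1 known from nerve and lymphoid cells, were all but undetected. Neither had more than 3 counts in any library, EGR2 had 0 in 34 of 60 libraries and EGR3 had 0 in 33. A count of 0 allows up to 3 counts, which is 0.0888 to 0.165 CPM at these depths, so a level below that could not be seen. Neither was above 0.138 CPM in any library, the value of EGR2 in the single Aucklandiae Radix high library, which rested on 3 counts.

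Among the other 8 genes FOSB and EGR1 moved farthest, over 15.9-fold and 15.7-fold between their lowest and highest libraries. FOS ranged over 6.17-fold and FOSL1 over 4.69-fold, and JUN, IER3, JUNB and IER2 over 2.36-, 2.12-, 1.87- and 1.76-fold. Over the 58 libraries without the 2 that stood apart, FOS ranged over 3.33-fold, FOSL1 over 3.2-fold, IER3 over 1.53-fold and JUNB over 1.52-fold, while the ranges of FOSB, EGR1, JUN and IER2 rested on neither of the 2. The highest values of FOS, FOSB, EGR1 and IER2 were in Polygalae Radix high, that of FOSL1 in Aucklandiae Radix high, and that of JUN in Soshiho-tang high. Those of JUNB and IER3 were in the 2 libraries that stood apart, as were the lowest values of FOS and FOSL1.

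**Figure D2:**
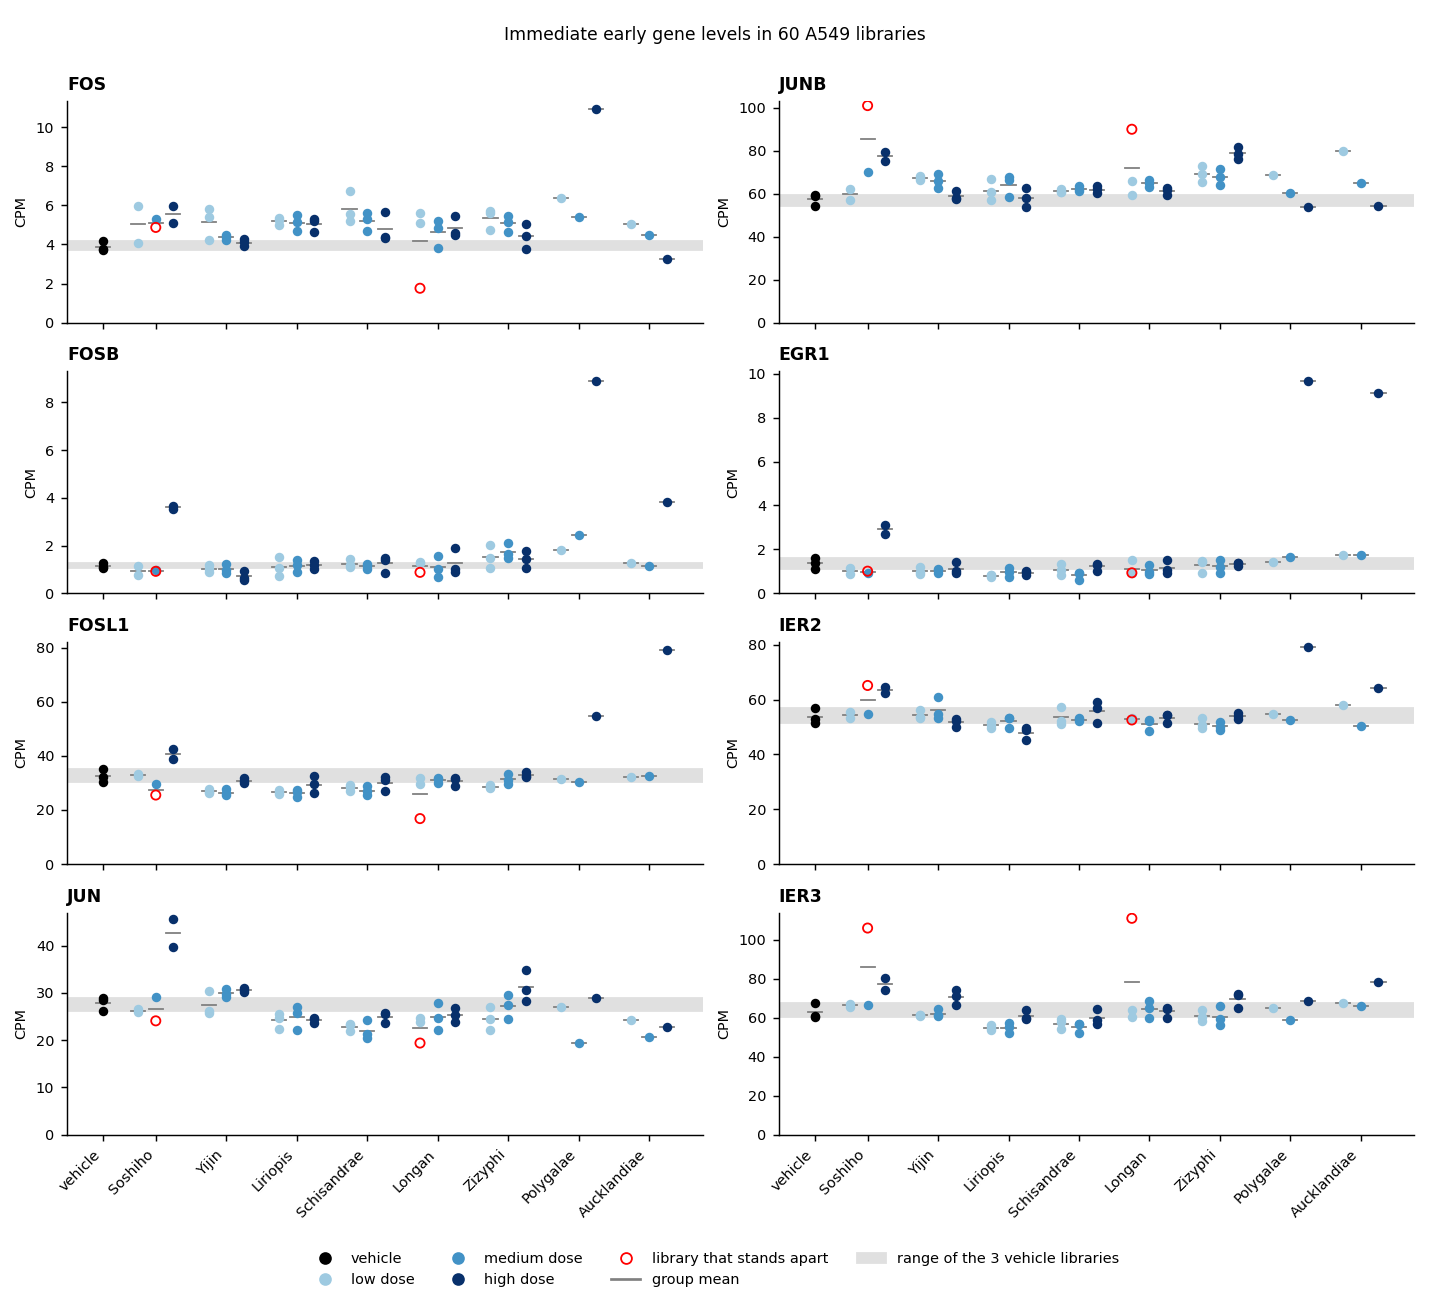
Level in CPM (each axis from 0) of 8 genes in each of 60 libraries, in columns for vehicle and for the low, medium and high dose of each extract; bars are group means, the grey band spans the 3 vehicle libraries and red open circles mark the 2 libraries that stood apart. FOSB and EGR1 lie farthest above the band at the high doses of Soshiho-tang, Polygalae Radix and Aucklandiae Radix, where FOSB is at 3.54 to 8.89 CPM and EGR1 at 2.71 to 9.66 CPM. Other groups lie outside the band by less, on either side.

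FOSB, EGR1 and JUN rose at the high dose of Soshiho-tang relative to its own low dose. FOSB, an AP-1 subunit gene with little basal expression here, stood at 3.68 and 3.54 CPM in the high-dose libraries (84 and 81 counts), against 1.14 and 0.754 CPM in the low-dose libraries (27 and 19 counts). Both high-dose libraries lay above every low-dose and vehicle library. The log2 fold change was 1.93 ± 0.337 (SE, edgeR adjusted p = 0.00035), a 3.82-fold difference.

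EGR1, the zinc finger factor induced by growth factors and stress, was at 3.11 and 2.71 CPM at the high dose, against 0.886 and 1.15 CPM at the low dose. The groups did not overlap, and the log2 fold change was 1.51 ± 0.269 (edgeR adjusted p = 0.000466). JUN, the AP-1 subunit that is itself activated by stress kinases, was at 45.7 and 39.7 CPM at the high dose, against 26.6 and 25.9 CPM at the low dose. These were the highest JUN levels of all 60 libraries, with a log2 fold change of 0.71 ± 0.115 (edgeR adjusted p = 0.00012).

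The remaining members were also higher in the high-dose means, without passing the test in the 54 libraries. FOSL1 was at 42.7 and 39.0 CPM at the high dose against 32.7 and 33.2 CPM at the low dose (edgeR adjusted p = 0.382). JUNB was at 79.4 and 75.3 CPM against 62.4 and 56.9 CPM (edgeR adjusted p = 0.137), IER2 at 62.4 and 64.5 CPM against 55.6 and 53.5 CPM (0.148) and IER3 at 80.3 and 74.3 CPM against 67.1 and 65.6 CPM (0.841). FOS was at 5.12 and 5.95 CPM at the high dose against 5.95 and 4.09 CPM at the low dose (log2 fold change 0.15 ± 0.236).

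In all, 3 of 8 members were called, all higher, where 1.58% of all genes were called, and their median log2 fold change was 0.35 beside 0 over all genes. In the 52 libraries 7 of 8 were called, all but FOS, where 9.51% of all genes were. Without low-dose replicate 3 FOSB lost its call (log2 fold change 1.67, edgeR adjusted p = 0.0543), and without low-dose replicate 2 EGR1 lost its call (1.34, adjusted p = 0.0602). JUN kept its call under the 11 alternatives, with edgeR or DESeq2 adjusted p between 2.13e-07 and 0.0271. Beside these values, fibroblast markers summed to 37.57 and 34.11 CPM in the high-dose libraries, against 44.3 and 44.13 CPM in the low-dose libraries and 41.67 to 42.84 CPM in vehicle, and leukocyte markers to 3.109 and 2.318 CPM, against 4.051 and 3.572 CPM in the low-dose libraries. Their part in the result was not tested. The epithelial and A549 markers were alike, at 17650 and 18140 CPM against 17590 and 17530 CPM.

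**Figure D3:**
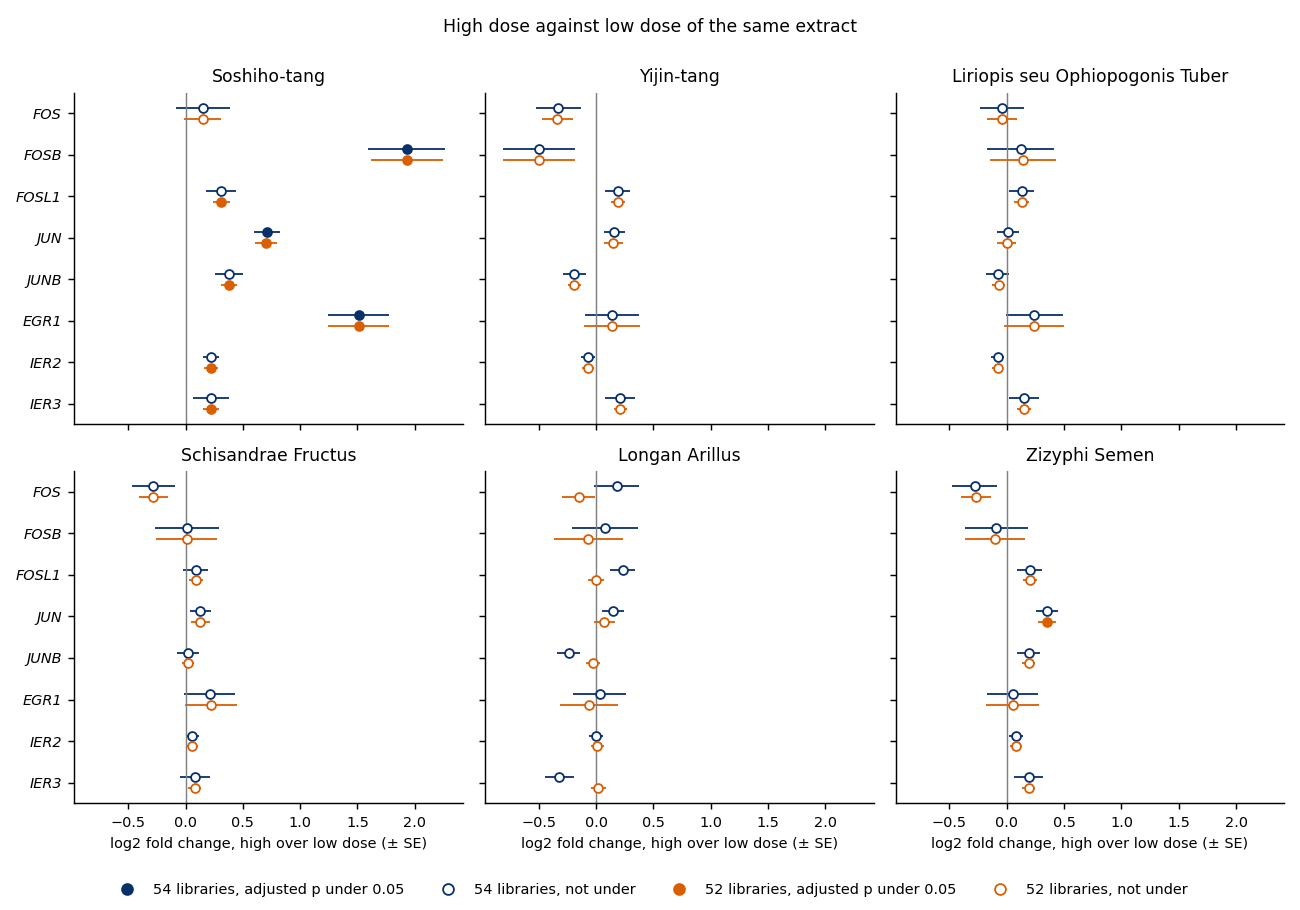
Log2 fold change (± SE) of the high over the low dose for 8 genes and 6 extracts, from 54 libraries (blue) and 52 libraries (orange), filled where the adjusted p was under 0.05. FOSB, JUN and EGR1 of Soshiho-tang are filled in both, at 1.93, 0.71 and 1.51 in the 54 libraries; of the other 5 extracts, JUN of Zizyphi Semen is filled in the 52 libraries.

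Relative to vehicle, FOSB, EGR1, JUN, JUNB and IER2 were higher at the high dose of Soshiho-tang. FOSB was at 3.68 and 3.54 CPM in Soshiho-tang high, against 1.27, 1.1 and 1.05 CPM in vehicle, with no overlap and a log2 fold change of 1.66 ± 0.287 (edgeR adjusted p = 0.000146). EGR1 was at 3.11 and 2.71 CPM in Soshiho-tang high, against 1.61, 1.12 and 1.37 CPM in vehicle (log2 fold change 1.09 ± 0.23, edgeR adjusted p = 0.00185). JUN was at 45.7 and 39.7 CPM, against 26.1, 28.6 and 29 CPM in vehicle (0.62 ± 0.103, 9.41e-05). In each of these genes both high-dose libraries lay above every vehicle library, and the same held for the smaller changes of the next pair. JUNB was at 79.4 and 75.3 CPM in Soshiho-tang high, against 54.1, 59.1 and 59.4 CPM in vehicle (log2 fold change 0.43 ± 0.109, adjusted p = 0.0112). IER2 was at 62.4 and 64.5 CPM, against 51.5, 52.9 and 57.0 CPM in vehicle (0.24 ± 0.0648, adjusted p = 0.0188).

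FOS, the founding AP-1 partner of JUN, was at 5.12 and 5.95 CPM in Soshiho-tang high, against 3.78, 3.7 and 4.17 CPM in vehicle, without overlap, but did not pass the test (edgeR adjusted p = 0.198). Thus 5 of 8 members were called, where 5.08% of all genes were, and without the 2 libraries 8 of 8, where 21.5% of all genes were. FOSB and JUN were called with each library left out in turn. EGR1 lost its call without high-dose replicate 2 (edgeR adjusted p = 0.0798). JUNB lost its call without vehicle replicate 1 or either high-dose replicate (edgeR adjusted p = 0.0707, 0.176 and 0.0562). IER2 lost its call without vehicle replicate 1 or 2 or either high-dose replicate (edgeR adjusted p = 0.114, 0.0812, 0.121 and 0.24), with no filter on low counts (0.255) and with its own set and vehicle alone (0.0938). Mitochondrial genes held 14.43 and 14.24% of the counts in Soshiho-tang high, against 11.46 to 11.76% in vehicle and 14.33 and 13.35% in Soshiho-tang low, and the part of that in these results was not tested.

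At the medium dose of Soshiho-tang FOSB and EGR1 stood where they did at the low dose. FOSB was at 0.959 and 0.923 CPM and EGR1 at 0.922 and 1.01 CPM, within the range of the low dose. FOSL1 was at 29.4 and 25.5 CPM at the medium dose, below both low-dose libraries at 32.7 and 33.2 CPM (log2 fold change -0.26 ± 0.133, edgeR adjusted p = 0.226). JUNB was at 70.0 and 101 CPM, above both low-dose libraries at 62.4 and 56.9 CPM (0.52 ± 0.121, edgeR adjusted p = 0.11), and DESeq2 called it (0.52 ± 0.126, adjusted p = 0.0118). Without the 2 libraries its log2 fold change was 0.23 ± 0.0814 (edgeR adjusted p = 1). By edgeR no member was called at the medium dose (0.00561% of all genes called, and 0 without the 2 libraries). An unadjusted p under 0.05 was found for 2 members and for 4034 of 17826 genes. The 101 CPM of JUNB was in the library that stood apart, which also read 106 CPM for IER3, where the other medium-dose library read 66.4 CPM.

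Of the genes called in Soshiho-tang high, 3 overlap another gene on the opposite strand. FOSB overlaps ERCC1, which was at 101 ± 0.39 CPM in Soshiho-tang high and 90.1 ± 2.31 CPM in Soshiho-tang low (edgeR adjusted p = 0.979). JUNB overlaps HOOK2, at 8.55 ± 0.765 CPM in Soshiho-tang high and 6.51 ± 0.451 CPM in vehicle (adjusted p = 0.192). IER2 overlaps the antisense gene AC011446.2, which had at most 5 counts in any library and was not tested. The strand setting of the counting is not given in the sources used here, so reads of such pairs may not be fully separated. The same holds for IER3, which overlaps the antisense gene IER3-AS1. That gene was at 0.175 ± 0.0617 CPM in Soshiho-tang high and 0.0956 ± 0.0454 CPM in vehicle and was not tested. In its highest library IER3-AS1 reached 20.5 CPM (373 counts).

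Yijin-tang, the other decoction of the same set, was lower than Soshiho-tang at the same dose of 500 µg/mL. FOSB was at 0.559, 0.949 and 0.663 CPM in Yijin-tang high, against 3.68 and 3.54 CPM in Soshiho-tang high, with a log2 fold change of -2.31 ± 0.308 (edgeR adjusted p = 3.27e-06). EGR1 was at 0.918, 1.04 and 1.43 CPM in Yijin-tang high, against 3.11 and 2.71 CPM in Soshiho-tang high (-1.38 ± 0.239, adjusted p = 0.000394). For both genes every Yijin-tang library lay below both Soshiho-tang libraries.

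JUN was at 30.2, 31.0 and 30.7 CPM in Yijin-tang high, against 45.7 and 39.7 CPM in Soshiho-tang high (log2 fold change -0.48 ± 0.104, edgeR adjusted p = 0.00674). IER2 was at 52.9, 50 and 52.3 CPM, against 62.4 and 64.5 CPM (-0.3 ± 0.065, adjusted p = 0.00813). With these, 4 of 8 members were called, all lower in Yijin-tang, where 1.19% of all genes were called. In the 52 libraries 6 of 8 were called, FOSL1 and JUNB being added, where 8.37% of all genes were. Leaving out Soshiho-tang high replicate 2 ended the calls of JUN (adjusted p = 0.486) and IER2 (0.0959), which left 2 members called. Leaving out Yijin-tang high replicate 2 or Soshiho-tang high replicate 3 also ended that of IER2 (edgeR adjusted p = 0.0768 and 0.212), as did no filter on low counts (0.144) and a fit of its own set and vehicle alone (0.124).

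The response to dose itself also differed between the decoctions for FOSB. Its high-over-low log2 fold change was -0.5 in Yijin-tang and 1.93 in Soshiho-tang, a difference of -2.44 ± 0.459 (edgeR adjusted p = 0.00343), and it was the only member called, where 0.286% of all genes were. Without Soshiho-tang low replicate 3 the difference was -2.17 and missed the threshold (adjusted p = 0.0999), which left 0 members called. In the 52 libraries, 5 members differed, FOSB, JUN, JUNB, EGR1 and IER2, where 2.58% of all genes did. Between Schisandrae Fructus and Liriopis seu Ophiopogonis Tuber, and between Zizyphi Semen and Longan Arillus, edgeR called no member that differed in its dose response. An unadjusted p under 0.05 was found for 0 and 2 members, a threshold at which all genes were not counted for these differences. Of all genes 0 and 0.0112% were called there, and 0.318% and 0.137% in the 52 libraries, where again no member was. DESeq2 was not run on these differences.

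At the high dose of Zizyphi Semen JUNB was higher than in vehicle, the only member called there. JUNB was at 76.2, 78.7 and 81.6 CPM in Zizyphi Semen high, against 54.1, 59.1 and 59.4 CPM in vehicle, with a log2 fold change of 0.45 ± 0.0985 (edgeR adjusted p = 0.0056). Every high-dose library lay above every vehicle library, and 3.66% of all genes were called. Mitochondrial genes held 15.43 to 16.83% of the counts in Zizyphi Semen high, against 11.46 to 11.76% in vehicle, and the part of that in the result was not tested. With those 2 left out JUNB was again the only member called, where 22.1% of all genes were. It missed the threshold when its set was fitted with vehicle alone (adjusted p = 0.11).

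Part of that difference was present at the low dose of Zizyphi Semen. JUNB was at 65.4, 69.0 and 73.1 CPM there, above every vehicle library and below every high-dose library, and the step between the doses did not pass the test (log2 fold change 0.19 ± 0.0984, edgeR adjusted p = 1). JUN was at 28.2, 30.7 and 34.9 CPM at the high dose, against 22.2, 24.4 and 27.1 CPM at the low dose (0.35 ± 0.0947, adjusted p = 0.383). Between these doses edgeR and DESeq2 called no member, and 0.028% of all genes were called. Of the members JUN alone had an unadjusted p under 0.05, where 669 of 17826 genes had. In the 52 libraries JUN was called (edgeR adjusted p = 0.0189), where 1.15% of all genes were.

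Zizyphi Semen and Longan Arillus, both at 500 µg/mL and in 1 set, were compared in the 54 libraries. No member was called between them by edgeR or DESeq2, where 0.0112% of all genes were. An unadjusted p under 0.05 was found for 2 members and for 554 of 17826 genes. In the 52 libraries JUNB was called, where 0.719% of all genes were (edgeR adjusted p = 4.69e-05). It was at 78.8 ± 2.68 CPM in Zizyphi Semen high and 61.4 ± 1.67 CPM in Longan Arillus high (SD, n = 3 each). Schisandrae Fructus and Liriopis seu Ophiopogonis Tuber had no member called between them either (0.0561% of all genes, DESeq2 0 members). At an unadjusted p under 0.05 were 1 member and 796 of 17826 genes. In the 52 libraries IER2 was called, where 2.97% of all genes were (edgeR adjusted p = 0.0073). It was at 55.9 ± 3.92 CPM in Schisandrae Fructus high and 47.9 ± 2.39 CPM in Liriopis seu Ophiopogonis Tuber high. Over the 3 pairs of extracts compared, p-values were adjusted over all genes within each pair.

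The high doses of Yijin-tang, Liriopis seu Ophiopogonis Tuber, Schisandrae Fructus and Longan Arillus moved no member past the threshold relative to their low doses in the 54 libraries. By edgeR 0, 0, 0 and 3 members had an unadjusted p under 0.05, where 627, 279, 655 and 6413 of 17826 genes had. DESeq2 also called 0 members in each. Of all genes, 0.146%, 0, 0.00561% and 18.8% were called in these comparisons. The counts of members in the 52 libraries were again 0, where 0.987%, 0, 1.54% and 0.0878% of all genes were called, so that the 18.8% of Longan Arillus rested on the library that stood apart. The 95% intervals of FOSB ran from -1.12 to 0.11 on the log2 scale in Yijin-tang, from -0.45 to 0.7 in Liriopis seu Ophiopogonis Tuber, from -0.53 to 0.56 in Schisandrae Fructus and from -0.49 to 0.64 in Longan Arillus, where the interval in Soshiho-tang began at 1.27. Of these 4, the difference from Soshiho-tang was tested for Yijin-tang, in the same set, and for no other.

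Relative to vehicle, the same 4 high doses also had 0 members called. Of all genes 0.544%, 0.32%, 1.02% and 1.33% were called, and DESeq2 called 0 members in each. An unadjusted p under 0.05 was found for 1, 3, 0 and 0 members, and for 1343, 1172, 1546 and 1994 of 17826 genes. IER2 was, in the 52 libraries, called lower in Liriopis seu Ophiopogonis Tuber high, at 49.1, 49.5 and 45.2 CPM, against 51.5, 52.9 and 57.0 CPM in vehicle (log2 fold change -0.16 ± 0.0492, edgeR adjusted p = 0.032). The other 3 had none, and the shares of all genes were 7.17%, 7.27%, 9.15% and 13.8%. Medium doses had 0 members called relative to low doses in all 6 extracts, with or without the 2 libraries, at shares of 0 to 0.00561% of all genes, except 18% for Longan Arillus with the library that stood apart (0.00549% for Yijin-tang without the 2). By unadjusted p under 0.05, at most 2 members passed in any of these. Those with 2 were Soshiho-tang and Longan Arillus in the 54 libraries, where 4034 and 6822 of 17826 genes passed. DESeq2 called 1 member, in Soshiho-tang medium.

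The low doses are the nearest to untreated cells in their own sets, and several members stood off from vehicle there. FOS was at 4.25, 5.79 and 5.39 CPM in Yijin-tang low, at 5.24, 5.34 and 5.01 CPM in Liriopis seu Ophiopogonis Tuber low and at 6.73, 5.2 and 5.56 CPM in Schisandrae Fructus low, against 3.78, 3.7 and 4.17 CPM in vehicle. In Zizyphi Semen low it was at 5.59, 4.72 and 5.7 CPM. None of these 4 groups overlapped vehicle, while Soshiho-tang low (5.95 and 4.09 CPM) did. Longan Arillus low (5.09, 5.61 and 1.76 CPM) overlapped vehicle only through the 1.76 CPM of its replicate 3, the library that stood apart. The share of all genes without overlap in such comparisons was not counted.

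FOSL1 went the other way. It was at 26.3, 26.8 and 27.7 CPM in Yijin-tang low, at 26.7, 26 and 27.5 CPM in Liriopis seu Ophiopogonis Tuber low, at 28.6, 29.1 and 27.0 CPM in Schisandrae Fructus low and at 29.1, 28.1 and 28.6 CPM in Zizyphi Semen low, against 32.0, 30.5 and 35.1 CPM in vehicle. Each of these 4 groups lay below all vehicle libraries, and here too the share of all genes without overlap was not counted. These comparisons share the vehicle libraries, and set and treatment cannot be told apart in them. Mitochondrial genes held 12.08 to 16.3% of the counts in these 4 groups, against 11.46 to 11.76% in vehicle, and the part of that was not tested.

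In the 54 libraries no member was called at the low dose of Soshiho-tang, Yijin-tang, Liriopis seu Ophiopogonis Tuber, Schisandrae Fructus or Zizyphi Semen, where 0.0449%, 0.146%, 0.185%, 0.342% and 5.99% of all genes were. By edgeR 0, 3, 4, 2 and 2 members had an unadjusted p under 0.05, where 786, 901, 978, 1180 and 3323 of 17826 genes had. DESeq2 called 0 members. Without the 2 libraries 0, 2, 2, 3 and 3 members were called, where 3.06%, 3.61%, 3.89%, 6.35% and 26.7% of all genes were. FOSL1 was among them, lower, in the last 4 (log2 fold change -0.27, -0.28, -0.2 and -0.18), and FOS, higher, in Schisandrae Fructus and Zizyphi Semen (0.59 and 0.47). JUNB was higher in Yijin-tang and Zizyphi Semen low (0.23 and 0.27), IER3 lower in Liriopis seu Ophiopogonis Tuber low (-0.2) and JUN lower in Schisandrae Fructus low (-0.29).

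Longan Arillus low was the one low dose with members called in the 54 libraries, FOSL1 and JUN lower and JUNB and IER3 higher, 4 of 8 where 35.9% of all genes were called. Each of these calls ended without its replicate 3, the library that stood apart. FOSL1 was at 29.4, 31.8 and 16.8 CPM over its replicates 1, 2 and 3, and IER3 at 60.5, 64.1 and 111 CPM. Without the 2 libraries none of these 4 was called, with log2 fold changes of -0.08 for FOSL1, -0.2 for JUN, 0.13 for JUNB and -0.01 for IER3, against -0.3, -0.29, 0.33 and 0.34 with them. The remaining Longan Arillus libraries averaged 24.2 ± 0.496 CPM for JUN, below all vehicle libraries (26.1 to 29 CPM). Other libraries also ended calls: that of FOSL1 was lost without vehicle replicate 1 or 3 (edgeR adjusted p = 0.0566 and 0.128), that of JUN without vehicle replicate 2 or 3 (0.061 and 0.0704) and that of IER3 without vehicle replicate 1 or 2 (0.107 and 0.101) and with no filter on low counts (0.118). All 4 were lost when the set was fitted with vehicle alone (adjusted p between 0.053 and 0.141). In the 52 libraries FOS was called (0.46 ± 0.144, edgeR adjusted p = 0.0142), where 25.1% of all genes were.

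Polygalae Radix and Aucklandiae Radix had 1 library per dose, so their values are single measurements with no test, their intervals are exact 95% binomial (Clopper-Pearson) and cover counting error only, and a change is marked at 2-fold on the scale of log2(CPM + 1). In the order vehicle mean, low, medium and high dose of Polygalae Radix, FOSB read 1.14, 1.83, 2.43 and 8.89 CPM, EGR1 1.37, 1.43, 1.65 and 9.66 CPM, and FOS 3.88, 6.35, 5.4 and 10.9 CPM. Those 3 genes had their highest value of all 60 libraries at this high dose of 380 µg/mL. The intervals at the high dose were 7.83 to 10.1 CPM for FOSB, 8.55 to 10.9 CPM for EGR1 and 9.68 to 12.1 CPM for FOS.

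The other members moved less in Polygalae Radix high. FOSL1 was at 54.8 CPM, against 32.5 CPM as the vehicle mean, and IER2 at 79.4 CPM, against 53.8 CPM. JUN (29 against 27.9 CPM), JUNB (53.8 against 57.5 CPM) and IER3 (68.6 against 62.9 CPM) stayed close to vehicle. Thus 3 of 8 members passed 2-fold relative to vehicle, all higher, where 11.5% of all genes passed it in either direction (543 higher and 1504 lower). Relative to its own low dose FOSB and EGR1 did, where 9.62% of all genes did.

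In this library the epithelial, fibroblast and leukocyte marker sums were the lowest of all 60 libraries. Its epithelial and A549 markers summed to 3153 CPM, against 18660 to 19040 CPM in vehicle, 16700 CPM at the low dose and 10780 CPM at the medium dose. Its fibroblast, leukocyte and endothelial markers summed to 21.15, 1.159 and 0.3864 CPM, and its share of mitochondrial counts was 15.35%, against 11.46 to 11.76% in vehicle and 16.17% at the low dose. Their part in the values of the members was not tested.

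Aucklandiae Radix high, at 370 µg/mL, showed EGR1 at 9.13 CPM (interval 7.9 to 10.5), FOSB at 3.81 CPM (3.03 to 4.72) and FOSL1 at 79.0 CPM (75.3 to 82.8). In the order vehicle mean, low and medium dose, EGR1 read 1.37, 1.75 and 1.73 CPM, FOSB 1.14, 1.28 and 1.14 CPM, and FOSL1 32.5, 32.0 and 32.4 CPM, so the change appeared at the last step. FOSL1 was the highest of all 60 libraries there. FOS, by contrast with Polygalae Radix, was at 3.26 CPM (2.54 to 4.11), and JUN was at 22.8 CPM, JUNB at 54.5 CPM, IER2 at 64.2 CPM and IER3 at 78.2 CPM. Passing 2-fold were 3 of 8 members, all higher, relative to vehicle (1.59% of all genes) and to the low dose (1.08%). The epithelial and A549 markers summed to 11560 CPM in this library, against 18660 to 19040 CPM in vehicle, fibroblast markers to 31.56 CPM, against 41.67 to 42.84 CPM, and leukocyte markers to 6.01 CPM, against 2.49 to 2.782 CPM. Mitochondrial genes held 15.02% of its counts, against 11.46 to 11.76% in vehicle and 15.8% at the low dose, and the part of these shifts in the values was not tested. ERCC1, which overlaps FOSB, was at 121 CPM in Aucklandiae Radix high and 80.1 CPM in Polygalae Radix high, against 87.6 ± 2.57 CPM in vehicle. Its part in the FOSB values was not tested. The doses of the 2 extracts differ, so their values are set side by side only.

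**Figure D4:**
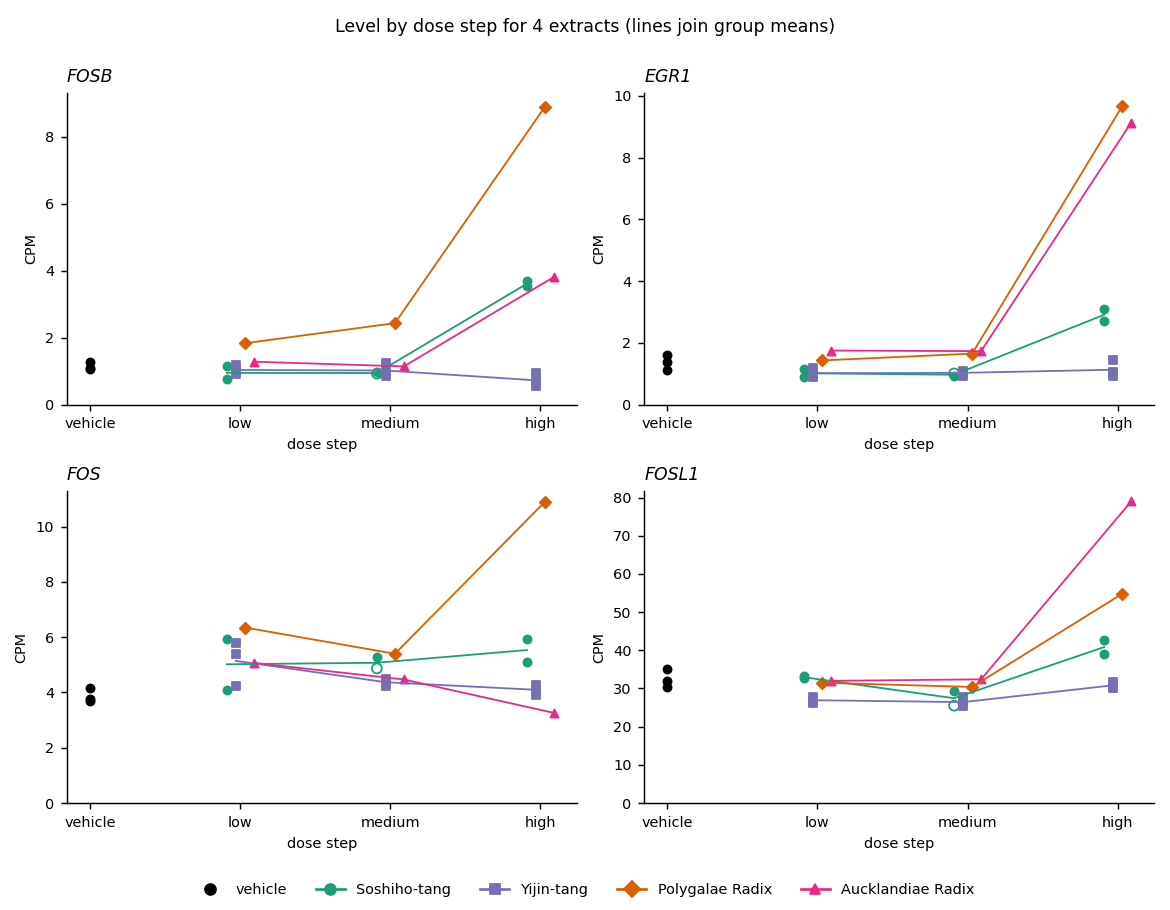
Level in CPM of FOSB, EGR1, FOS and FOSL1 by dose step (vehicle, low, medium, high) for 4 extracts; points are libraries, lines join group means, and doses at a step are not equal between extracts. FOSB and EGR1 climb at the last step in Soshiho-tang, Polygalae Radix and Aucklandiae Radix and stay at 0.559 to 1.43 CPM in Yijin-tang high.

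Genes of related lists were also called in Soshiho-tang high. These lists were chosen with earlier results of these data known, so their counts are a description and give no independent support. Relative to the low dose, where 1.58% of all genes were called, 2 of 12 tested other AP-1 family genes were, both higher: ATF3, a stress-induced AP-1 partner, at 14.0 ± 0.819 CPM in Soshiho-tang high and 5.69 ± 0.304 CPM in Soshiho-tang low (SD, n = 2 each; log2 fold change 1.31 ± 0.161, edgeR adjusted p = 5.65e-07), and JDP2, a JUN-binding repressor, at 33.0 ± 1.61 and 22.1 ± 0.902 CPM in those groups (0.58 ± 0.128, adjusted p = 0.0077). Their list had a median log2 fold change of 0.22, beside 0 over all genes.

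Of 20 other immediate early genes, 4 were called higher and 1 lower. PPP1R15A, which encodes the stress-induced phosphatase subunit GADD34, changed most, with 67.4 ± 3.81 CPM in Soshiho-tang high and 34.2 ± 0.082 CPM in Soshiho-tang low (log2 fold change 0.98, edgeR adjusted p = 1.93e-11). RHOB, a small GTPase gene, and PHLDA1 rose by 0.39 and 0.35 (edgeR adjusted p = 0.00684 and 0.000719), and SGK1, a serum- and glucocorticoid-induced kinase gene, fell by 0.34 (adjusted p = 0.000506). Among 11 MAP kinase feedback genes 1 was called, the phosphatase gene DUSP4 (0.28, adjusted p = 0.00035), with a list median of 0.25. Of the 6 genes of serum response factor and its ternary complex partners, and of the 2 tested genes of the list of EGR relatives and co-repressors, edgeR called 0 and none had an unadjusted p under 0.05.

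Of 12 tested AP-1 target genes, 3 were called, all higher. CXCL8, the interleukin 8 gene, was at 5.23 ± 1.33 CPM in Soshiho-tang high and 0.777 ± 0.0242 CPM in Soshiho-tang low (log2 fold change 2.75 ± 0.381, edgeR adjusted p = 5.98e-06), and PLAU, which encodes urokinase, rose by 0.31 on the log2 scale (adjusted p = 0.0428). CXCL8 was also called in Yijin-tang high relative to its low dose, with 4.6 ± 0.552 CPM and 1.37 ± 0.293 CPM (1.75 ± 0.293, adjusted p = 0.00085), where FOSB, JUN and EGR1 were not called. The numbers called in Soshiho-tang in the 52 libraries, where 9.51% of all genes were called, were 4 higher of 12 other AP-1 genes, 8 higher and 1 lower of 20 immediate early genes, 5 higher of 11 feedback genes, and 7 higher and 1 lower of 12 targets.

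In the single libraries the same lists differed between the 2 extracts. In Polygalae Radix high, relative to vehicle, 3 of 12 other AP-1 genes passed 2-fold, all higher: ATF3 was at 18.2 CPM (4.8 ± 0.28 CPM in vehicle, SD, n = 3), JUND at 130 CPM (48.9 ± 3.18) and MAFK at 310 CPM (131 ± 4.74). Of all genes, 3.05% passed 2-fold higher and 8.44% lower there. Of 20 other immediate early genes 3 passed it higher and 1 lower. NR4A1, an orphan receptor of the early response, was at 117 CPM (35.9 ± 2.01). PPP1R15A was at 68.8 CPM (31.7 ± 2.06) and GEM, a small GTPase gene, at 20.9 CPM (5.79 ± 0.176), whereas BTG2, an anti-proliferative early gene, was at 5.27 CPM (11.8 ± 0.686). Yet 6 of 12 AP-1 targets passed 2-fold lower and none higher, among them VIM at 264 CPM (988 ± 30.2) and PLAU at 16.6 CPM (49.9 ± 0.538). Relative to its own low dose, 2 other AP-1 genes and 2 other immediate early genes passed 2-fold, all higher, and 6 targets passed it lower. Of all genes 2.1% passed it higher and 7.52% lower there. JUND, PPP1R15A and BTG2 were at 70.9, 37 and 7.56 CPM at the low dose and did not pass it. In Aucklandiae Radix high, relative to vehicle, no other AP-1 gene and no other immediate early gene passed 2-fold. Of all genes 0.875% passed it higher and 0.718% lower there. Of 12 targets 2 passed it, both higher, among them the integrin gene ITGA2 at 67.0 CPM (31.7 ± 3.12 in vehicle). Relative to the low dose of Aucklandiae Radix, NR4A1 passed 2-fold lower, at 18 CPM against 47.8 CPM, and 2 targets passed it higher. Of all genes 0.589% passed it higher and 0.494% lower there.

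How the members varied together over the 25 group means was described by correlation on the log2(CPM + 1) scale; the groups share sets, depth and the vehicle libraries. EGR1 went most closely with FOSL1 (Pearson 0.94, Spearman 0.75) and with FOSB (0.9 and 0.73), and the lowest were those of FOSL1 and JUNB by Pearson (-0.36, Spearman -0.22) and of FOS and IER3 by Spearman (-0.37, Pearson -0.18). Over the 19 replicated groups without the 2 libraries the first 2 were 0.84 and 0.66, and 0.87 and 0.63, that of FOSL1 and JUNB turned positive (Pearson 0.36, Spearman 0.05), and that of FOS and IER3 was -0.28 and -0.3. The 5 genes most like EGR1 by Pearson over the 25 groups, among 10829 genes of at least 5 CPM, were FOSL1, RNF19B, GPAT3, TMC6 and CD55 (Pearson 0.917 to 0.94, Spearman 0.42 to 0.784). Over the 19 groups they were ATF4, VEGFA, DDIT3, NUPR1 and GADD45A (Pearson 0.907 to 0.922, Spearman 0.514 to 0.677). Over the 25 groups those most like FOS were NR4A3, ELL2, THAP12, TSKU and NR4A1 (Pearson 0.875 to 0.904, Spearman 0.417 to 0.778). Those most like JUN were VEGFA, CYB561, ZHX2, DDIT4 and CEBPG (Pearson 0.73 to 0.847, Spearman 0.517 to 0.843). Those most like FOSL1 at that level were SLC9A7, MDM2, RNF19B, CCDC113 and NFKB2 (Pearson 0.881 to 0.911, Spearman 0.397 to 0.69). Over the 19 groups none of these was among the 5 of its gene. There they were NEDD9, CAST, HIF1A, FLRT3 and DNAJC12 for FOS (Pearson 0.801 to 0.868, Spearman 0.719 to 0.87). For JUN they were SERPINH1, INAVA, OPTN, MYC and HKDC1 (Pearson 0.891 to 0.92, Spearman 0.747 to 0.853). For FOSL1 they were NRSN2, TMEM214, EEIG1, IER3 and WASF2 (Pearson 0.82 to 0.866, Spearman 0.686 to 0.793).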

How the data were processed

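RNA of A549 cells was sequenced from 60 libraries, as 100 bp read pairs of a directional mRNA library per the labels' protocols. Alignment with STAR 2.7.3a to hg38 (GRCh38), counting with RSEM 1.3.3, trimming with Trim Galore 0.6.5 and quality checks with FastQC 0.11.9 are named in the submitters' processing notes; which annotation release and strand setting were used is not given in the sources used here. Deposited was a table of unscaled expected counts, 10.48% of them not whole. Counts were rounded, and CPM was scaled by TMM factors. Totals were 18 to 33.83 M counts per library, so 1 CPM rests on about as many counts as there are M. No pair of replicates agreed within sampling noise (chi-square per degree of freedom at least 1.863 in 51 pairs).

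Libraries were grouped by the labels. The 54 libraries of 19 replicated groups were fitted in 1 model (edgeR 4.0.16, quasi-likelihood F test, robust, filterByExpr, R 4.3.3) with Benjamini-Hochberg adjustment over all genes tested, called under 0.05; intervals are 1.96 SE either side. Every adjusted p is from edgeR unless another tool is named. Alternatives were the 52 libraries, DESeq2 1.42.0, other scaling and filters, a replicate block, single sets, and each library left out. On simulated data for Soshiho-tang high against low (17600 genes), the fit recovered 34.33% of the 1.5-fold, 52.24% of the 2-fold and 82.81% of the 4-fold changes and made 3 false calls. Single libraries were compared by log2 ratio with 1 CPM added. Lengths came from GENCODE 29 (57055 of 60675 identifiers matched) and promoter sequences from RefSeq (GRCh38.p14).

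The members and the lists were chosen with earlier results of these data known, as was the naming rule. All 10 members were described; of the other 6 lists, up to 4 called genes per comparison were named by size of change, and for FOS, JUN, EGR1 and FOSL1 the 5 genes of highest correlation; some genes these rules name are not reported here. Correlation of same-numbered replicates, as deviations from group means over genes, was over 0.1 in every pair for the medium and low doses of Zizyphi Semen alone (0.263 to 0.41); the labels do not say that numbers mark shared cultures.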

Additional observations from a re-analysis of the deposited data

Results flagged for a closer look

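The change of FOSB between high and low dose differed between the decoctions of 1 set: the log2 fold change was -0.5 in Yijin-tang and 1.93 in Soshiho-tang, a difference of -2.44 ± 0.459 by a test of the difference itself (edgeR adjusted p = 0.00343). FOSB was at 0.724 ± 0.202 CPM in Yijin-tang high (n = 3) and 3.61 ± 0.0966 CPM in Soshiho-tang high (n = 2). Without Soshiho-tang low replicate 3 the difference was -2.17 (adjusted p = 0.0999).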

How the results depend on the processing

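With the replicate block, the numbers of members called were 3 for Soshiho-tang high against low, 5 against vehicle, and 4 for Yijin-tang against Soshiho-tang high (5 within the set), and for Zizyphi Semen high against vehicle it was 1; the block changed no other count, and with crossed numbers Soshiho-tang medium had 0. Without the 2 libraries that stand apart, the members called were 7 for Soshiho-tang high against low, 8 against vehicle, 5 for the difference of the decoctions' dose responses, 1 for Zizyphi Semen high against low, Liriopis seu Ophiopogonis Tuber high against vehicle, Longan Arillus low against vehicle and both herb pairs, 2 for the low doses of Yijin-tang and Liriopis seu Ophiopogonis Tuber, and 3 for those of Schisandrae Fructus and Zizyphi Semen. With own set and vehicle only, they were 2 and 3 for Liriopis seu Ophiopogonis Tuber high and low, 2 for Schisandrae Fructus low, 1 for Schisandrae Fructus against Liriopis seu Ophiopogonis Tuber high, and 0 for Zizyphi Semen high and Longan Arillus low. DESeq2 called 1 in Soshiho-tang medium against low, and with library totals alone 4 members of Polygalae Radix high passed 2-fold over its low dose. Leaving out 1 replicate at a time gave 2 to 5 for Soshiho-tang high against vehicle, 2 to 4 for Yijin-tang against Soshiho-tang high, 1 to 4 for Longan Arillus low against vehicle, 0 to 3 for Longan Arillus high and medium and for Soshiho-tang medium against low, and 0 to 1 for the difference of dose responses. The log2 fold change of IER3 in Longan Arillus low against vehicle ran from -0.01 to 0.5 with 1 replicate left out, and was -0.01 without the 2 libraries. The causes of these shifts were not tested, beyond the removal of libraries itself. FOSB and EGR1 rest on 19 to 84 counts per library in Soshiho-tang.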

Other observations

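In the 54 libraries BTG2, an anti-proliferative early gene, was called lower than vehicle at the high dose of all 6 replicated extracts, with log2 fold changes of -0.49 in Soshiho-tang, -0.67 in Yijin-tang, -0.86 in Liriopis seu Ophiopogonis Tuber, -0.8 in Schisandrae Fructus, -0.63 in Longan Arillus and -0.52 in Zizyphi Semen (edgeR adjusted p between 4.48e-08 and 0.000705). DUSP1, which encodes a MAP kinase phosphatase, was called lower in Yijin-tang, Liriopis seu Ophiopogonis Tuber, Schisandrae Fructus and Longan Arillus (-0.29 to -0.38), and TRIB1 higher in all but Yijin-tang (0.36 to 0.49). TRIB1 was called in Yijin-tang as well in the 52 libraries (0.3 ± 0.0509, edgeR adjusted p = 5.25e-05) and so was DUSP1 in Zizyphi Semen (-0.25 ± 0.0628, adjusted p = 0.00324). These comparisons share the 3 vehicle libraries, and set and treatment cannot be told apart in them. Relative to the low dose of the same extract, neither BTG2 nor TRIB1 was called in any of the 6, in the 54 or the 52 libraries. In the single low-dose libraries of Polygalae Radix and Aucklandiae Radix, BTG2 was at 7.56 and 8.53 CPM, against 11.8 ± 0.686 CPM in vehicle. TRIB1 was at 38.1 and 36 CPM there, against 28.1 ± 0.762 CPM in vehicle.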
